A study of Mus musculus with 6 samples.

Results

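The mitotic gene set described here holds 40 genes whose products act around G2 and mitosis. They run from the cyclin-dependent kinase Cdk1 and its B-type cyclins to the kinases, checkpoint proteins, kinetochore parts and motors that divide the chromosomes. Members were the genes whose symbol in the deposited tables equals a listed name. All 40 were found among 52550 genes, and all 40 passed the filter on low counts, which left 19145 genes to test. RNA-seq was made from 3 Eed mutant and 3 wild-type mouse medulloblastomas, malignant tumours of the cerebellum, so that the Eed genotype could be compared. Eed belongs to the core of Polycomb repressive complex 2, which places a repressive methyl mark on histone H3. The Eed allele, the way the tumours were induced, the age, sex and strain of the mice and whether each tumour came from its own animal are not given in the sources used. The p-values therefore describe the spread among these 6 libraries, part of which may be technical. Eed itself was at 32.56, 36.76 and 30.66 CPM in mutant replicates 1 to 3, against 43.79, 30.13 and 35.63 CPM in wild-type replicates 1 to 3 (log2 fold change -0.13, SE 0.144, edgeR adjusted p = 0.656). The groups overlapped, so with the allele unknown the level of Eed RNA does not check the genotype labels.

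Most mitotic genes are transcribed late in the cell cycle. In resting cells the DREAM complex, which contains MuvB proteins, represses them through a short promoter element called the cell cycle genes homology region (CHR). In cycling cells MuvB joins first Mybl2 (B-Myb) and then Foxm1 to activate the same genes, often next to CCAAT boxes bound by NF-Y. Medulloblastomas of the Hedgehog type arise from granule cell progenitors, which divide rapidly in the outer layer of the young cerebellum, and mitotic transcripts are commonly read as a sign of how much of a tissue is cycling.

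In the RefSeq table of promoters (GRCm38.p6), 33 of the 40 members matched, with 35 promoters between them. The 250 bases before each start were searched on both strands for 2 motifs. The CHR core is TTTGAA, which appears in reverse complement where the element lies on the opposite strand. The box bound by NF-Y is CCAAT, searched in the same way. The CHR core was present in 12 of the 35 members' promoters (34.3%), against 15.99% of all 32851 promoters and 11.2% of the 15987 promoters of tested genes. CCAAT was present in 27 of the 35 (77.1%), against 33.8% of all promoters and 34.5% of those of tested genes. Both were present in 11 of the 35 (31.4%), against 5.55% of all and 4.07% of tested genes. Such matches are letters in a window and do not show binding. The promoters below are shown because, of the 12 members fixed by name for a full description, these 4 hold both motifs in the table. Other members, such as Ube2c, also hold both. The bases run 5′ to 3′ on the gene's strand and end at the base before the start, with both motifs in capitals. All 4 genes lie on the minus strand, Mki67 at chr7:135716380-135716629, Top2a at chr11:99024190-99024439, Cdk1 at chr10:69352913-69353162 and Cdc20 at chr4:118437344-118437593.
Mki67: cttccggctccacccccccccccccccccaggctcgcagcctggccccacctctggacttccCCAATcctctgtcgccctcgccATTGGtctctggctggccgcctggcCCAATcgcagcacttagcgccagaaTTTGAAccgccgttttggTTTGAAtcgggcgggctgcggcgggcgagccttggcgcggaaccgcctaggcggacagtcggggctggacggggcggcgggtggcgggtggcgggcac
Top2a: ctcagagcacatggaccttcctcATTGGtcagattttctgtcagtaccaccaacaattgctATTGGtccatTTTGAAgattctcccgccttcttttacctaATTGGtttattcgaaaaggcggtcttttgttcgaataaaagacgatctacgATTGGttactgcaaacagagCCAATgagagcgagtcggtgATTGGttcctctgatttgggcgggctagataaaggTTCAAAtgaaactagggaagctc
Cdk1: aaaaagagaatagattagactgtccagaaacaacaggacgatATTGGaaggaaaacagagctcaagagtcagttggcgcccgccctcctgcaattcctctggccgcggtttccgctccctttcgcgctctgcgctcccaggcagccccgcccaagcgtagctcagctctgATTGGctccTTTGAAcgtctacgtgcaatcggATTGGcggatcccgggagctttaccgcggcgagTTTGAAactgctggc
Cdc20: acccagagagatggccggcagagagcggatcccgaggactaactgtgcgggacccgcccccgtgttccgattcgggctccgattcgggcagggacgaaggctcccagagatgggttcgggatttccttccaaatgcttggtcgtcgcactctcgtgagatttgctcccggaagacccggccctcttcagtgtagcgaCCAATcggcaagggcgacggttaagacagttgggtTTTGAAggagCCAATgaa
The CHR cores of Cdk1 begin 71 and 15 bases before the start, that of Cdc20 begins 18 bases before it, and those of Mki67 begin 116 and 98 bases before it. Top2a has its CHR cores at 179 and 23 bases before the start and 6 CCAAT boxes, the most of the 4 promoters. The motifs do not overlap each other in these promoters.

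Depth was nearly equal, at 26299365, 26399821 and 26425111 estimated counts in mutant replicates 1 to 3 and 26330605, 26310140 and 26186236 in wild-type replicates 1 to 3. Every member had at least 509 estimated counts in every library. The granule cell progenitor and Hedgehog tumour markers (Atoh1, Barhl1, Gli1 and others, 11 in all) were all detected, with a summed level of 4511 to 4755 CPM in the mutants and 4396 to 4860 CPM in wild type. Their median log2 fold change was -0.01, and 5 of the 11 values were positive. At an unadjusted edgeR p under 0.05, 3 were higher and 1 lower, against 9.29% and 8.78% of all tested genes. Hhip, Atoh1 and Gli1 had values of 1.11, 0.59 and 0.35, and Sfrp1 had -0.46. CPM here means estimated counts scaled to a common library size by the TMM method.

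Every mitotic gene had a higher mean in the Eed mutant tumours, by a small amount. The log2 fold changes, mutant minus wild type, ran from 0.07 for Cenpf to 0.39 for Aurkb, with a median of 0.25, which is 1.19-fold. The median over all 19145 tested genes was -0.01, and 48.6% of them had a positive value, against 40 of 40 members. Summed over the members, expression was 6734, 6807 and 5968 CPM in mutant replicates 1 to 3, against 5546, 4775 and 5978 CPM in wild-type replicates 1 to 3. The means were 6503 ± 465 CPM in the mutants and 5433 ± 609 CPM in wild type (SD, n = 3 each), and the groups overlapped, since mutant replicate 3 lay just under wild-type replicate 3. In bulk tissue more or fewer cycling cells and more or less of each RNA per cycling cell cannot be told apart.

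No member passed the test across all genes. edgeR's quasi-likelihood test with Benjamini-Hochberg adjustment called 0 members in either direction at an adjusted p of 0.05 (0.0% of all tested genes in either direction), and the members' adjusted p ran from 0.134 for Mad2l1 to 0.736 for Cenpf. At an unadjusted edgeR p under 0.05, 22 of 40 members were higher and 0 lower, against 9.29% of all genes higher and 8.78% lower. That count was 14 without mutant replicate 1, 14 without mutant replicate 2 and 14 once a term for the code of each file was added. The share of all genes is not given for these refits. DESeq2 called 5 members higher, Mad2l1, Aurka, Plk1, Prc1 and Nusap1, and 0 lower, against 2.96% of 17679 genes called higher and 2.26% called lower. limma-voom and limma-trend called 0 members. Groups did not overlap for 24 of the 40 members, each higher in the mutants, against 13.1% of all tested genes higher without overlap. Without mutant replicate 3 the number was 37, but smaller groups separate more easily, and the share of all genes is not given for that comparison. The members are transcribed together in the cell cycle, so their counts are not 40 separate observations.

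**Figure D1:**
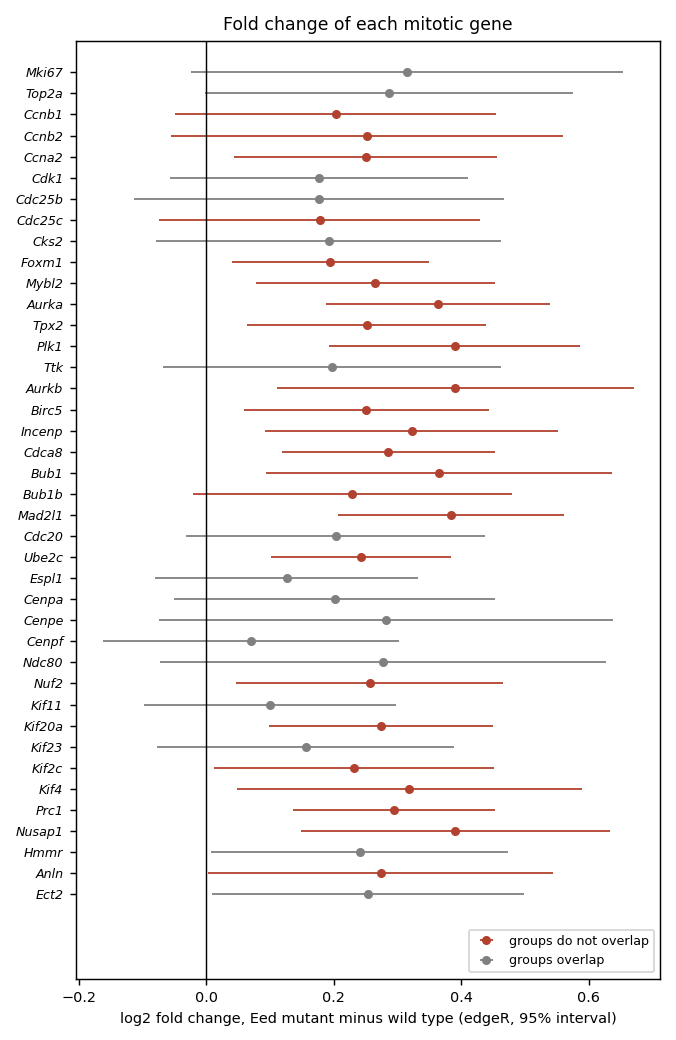
Log2 fold change of each of the 40 mitotic genes, Eed mutant minus wild type, from edgeR, with 95% intervals (3 libraries per group); genes run down the page by role. All 40 points lie above 0, from 0.07 to 0.39, and 22 intervals exclude 0 before any adjustment for the number of genes tested.

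The size of the difference varied between single libraries. Wild-type replicate 2 had the lowest level of all 6 libraries for 39 of the 40 members, the exception being Aurka. Mutant replicate 1 was highest for 20 members and mutant replicate 2 for 19, while Cenpf was highest in wild-type replicate 3. Within the mutants, replicate 3 was lowest for 36 members, and within wild type, replicate 3 was highest for 32. The median deviation of the members from their own mean over the 6 libraries was 0.18, 0.16 and 0.05 on the log2 scale in mutant replicates 1 to 3, against -0.09, -0.31 and 0.02 in wild-type replicates 1 to 3. Without wild-type replicate 2 the median log2 fold change was 0.17, and 23 of the 40 members had a value smaller by over 1.5 times. All 40 values stayed positive there and without each of the other libraries. With wild-type replicate 2 included, the coefficient of variation was larger in wild type for 34 members, with a median of 5.73% in the mutants and 11.5% in wild type. The share of all genes is not given beside this count. The members are transcribed together, so a greater spread among wild-type tumours is not shown.

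**Figure D2:**
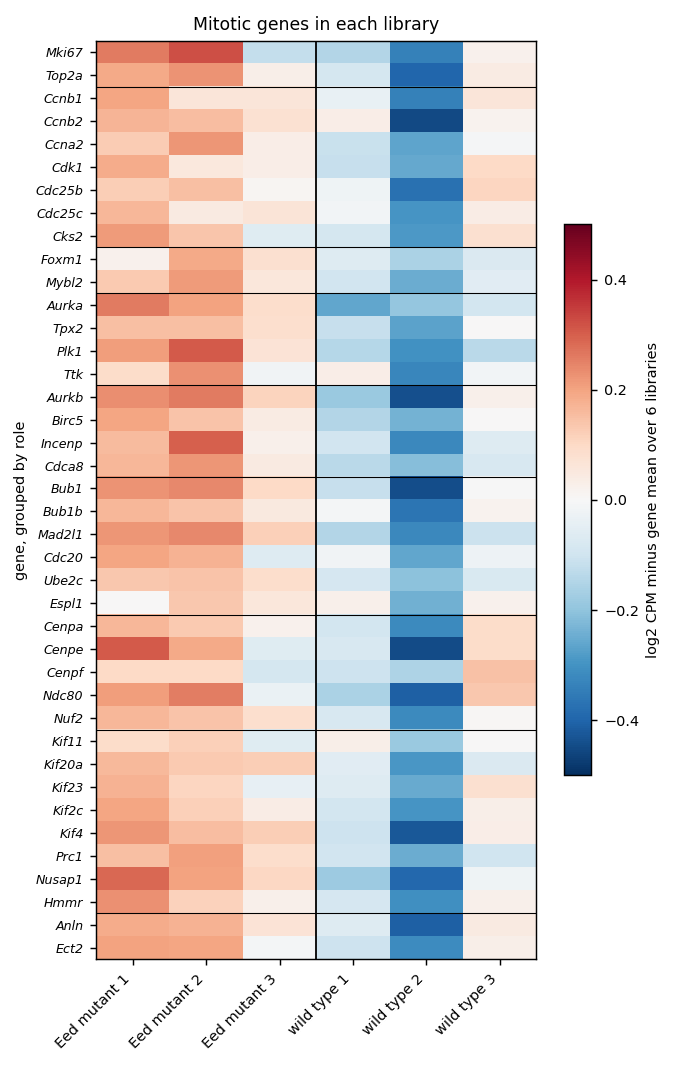
Level of each mitotic gene in each library as log2 CPM minus the gene's mean over the 6 libraries; rows are genes grouped by role, columns are the 3 Eed mutant libraries and the 3 wild-type libraries. Wild-type replicate 2 is the lowest column for 39 of 40 genes, and mutant replicates 1 and 2 hold the highest value for 39.

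The names of the deposited files contain codes that the labels do not explain. Mutant replicates 1 and 2 share a code with wild-type replicate 2, mutant replicate 3 shares another with wild-type replicate 3, and the code of wild-type replicate 1 is found in no other library. Set side by side within the first code, all 40 members were higher in the mutant libraries, with a median log2 ratio of 0.47 and values from 0.25 for Cenpf to 0.70 for Cenpe. Within the second code, 25 members were higher in mutant replicate 3 and 15 were lower, with a median of 0.03 and values from -0.24 for Cenpf to 0.23 for Mad2l1. The first code compares 2 libraries with 1 and the second 1 with 1, so neither was tested. With the code as a term in edgeR the members' median was 0.28 and 0 members were called. Wild-type replicate 1, alone in its code, adds nothing to the genotype difference in that fit. The median of 0.28 therefore rests on the same within-code comparisons, the first with wild-type replicate 2 as its only wild-type library.

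Summed levels of markers of other cells also varied between these libraries. The 10 oligodendrocyte markers summed to 358, 413 and 440 CPM in mutant replicates 1 to 3, against 559, 1562 and 906 CPM in wild-type replicates 1 to 3. All 10 had negative log2 fold changes (median -1.48), and Opalin was at 0 in mutant replicate 1. The 17 markers of differentiated granule neurons summed to 1526, 2182 and 1800 CPM in the mutants and 1872, 2995 and 2029 CPM in wild type, with 1 positive fold change and a median of -0.45. Without wild-type replicate 2 the median was -0.96 for the oligodendrocyte and -0.21 for the granule neuron markers, and without mutant replicate 2 it was -0.69 for the granule neuron markers. The 8 Purkinje cell markers summed to 428 to 595 CPM in the mutants and 653 to 1017 CPM in wild type (median -0.70). All 3 sums were highest in wild-type replicate 2, where the mitotic genes were lowest. The 16 skeletal muscle markers went the other way, at 239, 170 and 578 CPM in mutant replicates 1 to 3 and 69.2, 74.2 and 129.5 CPM in wild type (median 3.47). Median log2 fold changes were 0.37 for 8 endothelial, -0.30 for 11 microglial, -0.29 for 8 fibroblast and meningeal, -0.06 for 8 astrocyte and -0.12 for 5 erythroid markers, and of 8 lymphocyte markers 3 were tested (median -0.21). Several of these moved with 1 library: the microglial median was -0.13 and the lymphocyte median -0.04 without wild-type replicate 1, and the erythroid median was 0.85 without wild-type replicate 2. Without mutant replicate 2 the medians were -0.18 for fibroblast, 0.02 for astrocyte and -0.09 for lymphocyte markers, and without mutant replicate 3 they were -0.53, -0.28 and 0.13 for fibroblast, astrocyte and erythroid markers. edgeR called 0 genes of these lists. DESeq2 called 13 muscle, 2 endothelial and 1 granule cell progenitor marker higher, against 2.96% of 17679 genes. It called 9 oligodendrocyte, 4 granule neuron, 3 Purkinje, 1 microglial, 1 fibroblast and 1 astrocyte marker lower, against 2.26% of those genes. Their part in the difference in mitotic genes was not tested.

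**Figure D3:**
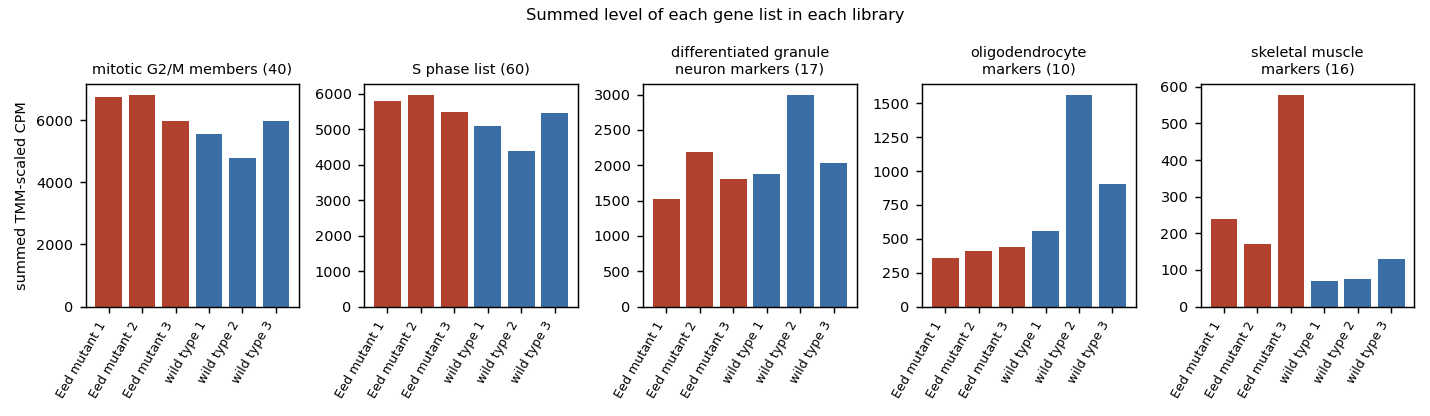
Summed CPM of 5 gene lists in each library, with Eed mutant libraries in red and wild-type libraries in blue; the number of genes in each list is in its title, and bars start at 0. Wild-type replicate 2 has the lowest mitotic sum (4775 CPM) and S phase sum (4387 CPM) and the highest oligodendrocyte sum (1562 CPM).

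Mki67, which encodes the Ki-67 antigen that coats mitotic chromosomes and is the usual marker of proliferation, had the highest count level of the set. It was at 1142, 1194 and 878 CPM in mutant replicates 1 to 3, against 862, 754 and 969 CPM in wild-type replicates 1 to 3. The groups overlapped, because mutant replicate 3 was below wild-type replicate 3. Its log2 fold change was 0.31 (SE 0.144, 95% interval -0.02 to 0.65, edgeR adjusted p = 0.301). Top2a, the DNA topoisomerase that untangles sister chromatids, was at 775.8, 795 and 693.5 CPM in the mutants, against 640, 517 and 700 CPM in wild type. It overlapped through the same pair of libraries (log2 fold change 0.29, SE 0.123, edgeR adjusted p = 0.278). Per transcript length the order differs: Top2a was the most abundant member, with a mean of 386 TPM in the mutants and 334 TPM in wild type, and Mki67 had 184 and 152 TPM, while Espl1 was the least abundant at 19.5 and 18.3 TPM.

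The core engine of mitotic entry is Cdk1 with its cyclins, switched on by Cdc25 phosphatases. Cdk1 was at 119, 109 and 108 CPM in the mutants, against 96.9, 87.8 and 113 CPM in wild type (log2 fold change 0.18, SE 0.0991, edgeR adjusted p = 0.382), and the groups overlapped. Ccnb1, cyclin B1, was at 170.4, 155.1 and 155.4 CPM in the mutants, against 145, 117.7 and 155 CPM in wild type. Its groups did not overlap, but mutant replicate 2 and wild-type replicate 3 were nearly equal (log2 fold change 0.20, and 0.10 without wild-type replicate 2). Ccna2, cyclin A2, which acts in S phase and G2, was at 341, 364 and 319 CPM in the mutants, against 289, 261 and 311 CPM in wild type (log2 fold change 0.25, 95% interval 0.04 to 0.46, edgeR adjusted p = 0.219). It was the 1 gene of this group of 7 with an unadjusted p under 0.05, against 9.29% of all tested genes higher at that p. Ccnb2, Cdc25b, Cdc25c and Cks2, a small Cdk-binding protein, had log2 fold changes of 0.25, 0.18, 0.18 and 0.19, and the groups overlapped for Cdc25b and Cks2. A pseudogene named Ccnb2-ps averaged 15.1 CPM in the same tables, so the division of reads between it and Ccnb2 (58.7 CPM in the mutants and 49.3 CPM in wild type) is uncertain.

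Both transcription factors of the set had groups that did not overlap, as did 24 of all 40 members, against 13.1% of all tested genes higher without overlap. Foxm1 was at 147.5, 165.8 and 153.5 CPM in the mutants, against 139, 130 and 138 CPM in wild type (log2 fold change 0.19, SE 0.0656, edgeR adjusted p = 0.209). Mybl2 was at 47.4, 50.2 and 45.1 CPM in the mutants, against 40.6, 36.5 and 41.7 CPM in wild type (log2 fold change 0.27, SE 0.0796, edgeR adjusted p = 0.182). Among the 22 genes of the MuvB, Myb, DREAM, E2F, pocket protein and NF-Y families, 0 were called in edgeR and the median was 0.07. Of these 7 were higher and 1 lower at an unadjusted p under 0.05, against 9.29% and 8.78% of all tested genes. Rbl1, which encodes the pocket protein p107, was at 86.7, 93.9 and 81.0 CPM in the mutants and 65.5, 56.0 and 71.2 CPM in wild type (log2 fold change 0.44, edgeR adjusted p = 0.149), and was called higher by DESeq2. E2f8, E2f7 and Nfya had values of 0.35, 0.39 and 0.29. The gene lower was E2f1, at 85.0, 87.5 and 89.6 CPM in the mutants, against 93.1, 94.9 and 102.4 CPM in wild type (log2 fold change -0.15, edgeR adjusted p = 0.269). The MuvB subunits had log2 fold changes of 0.24 for Lin54, 0.12 for Lin9, 0.05 for Rbbp4, -0.14 for Lin52 and -0.25 for Lin37.

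The mitotic kinases showed some of the widest gaps between groups. Plk1, Polo-like kinase, which drives centrosome maturation and mitotic entry, was at 92.6, 99.1 and 83.9 CPM in the mutants, against 72.5, 64.9 and 73.0 CPM in wild type (log2 fold change 0.39, SE 0.0835, edgeR adjusted p = 0.144, DESeq2 adjusted p = 0.0131). Aurka, the Aurora kinase of the spindle poles, was at 77.7, 74.6 and 69.0 CPM in the mutants, against 54.29, 56.86 and 60.95 CPM in wild type (log2 fold change 0.36, SE 0.0747, edgeR adjusted p = 0.142, DESeq2 adjusted p = 0.0111). Both were higher in every mutant than in any wild-type tumour, and both values held without wild-type replicate 2, at 0.34 for Plk1 and 0.36 for Aurka. Tpx2, which activates Aurora A on microtubules, had a log2 fold change of 0.25 with no overlap of the groups. Ttk, the checkpoint kinase Mps1, had 0.20 with overlap. In GENCODE M21 (GRCm38), Plk1 lies on the plus strand of chromosome 7 from 122159439 to 122169873, and Aurka on the minus strand of chromosome 2 from 172356190 to 172370535.

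The chromosomal passenger complex corrects faulty attachments of chromosomes to the spindle. All 4 of its members had an unadjusted edgeR p under 0.05 and no overlap of the groups. Of all 40 members 22 and 24 did, against 9.29% and 13.1% of all tested genes, counting those higher in the mutants. Aurkb, its kinase, was at 78.2, 79.5 and 71.8 CPM in the mutants, against 58.4, 48.95 and 67.64 CPM in wild type (log2 fold change 0.39, SE 0.119, 95% interval 0.11 to 0.67, edgeR adjusted p = 0.186), with 0.28 without wild-type replicate 2. Birc5, survivin, which targets the complex to centromeres, was at 82.66, 79.63 and 74.25 CPM in the mutants, against 65.2, 61.2 and 72.3 CPM in wild type (log2 fold change 0.25, SE 0.0816). Cdca8, borealin, was at 82.3, 85.5 and 75.7 CPM in the mutants, against 66.8, 63.4 and 69.5 CPM in wild type (log2 fold change 0.29, edgeR adjusted p = 0.153). The scaffold Incenp had a log2 fold change of 0.32. None of the 4 was called by edgeR or DESeq2.

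**Figure D4:**
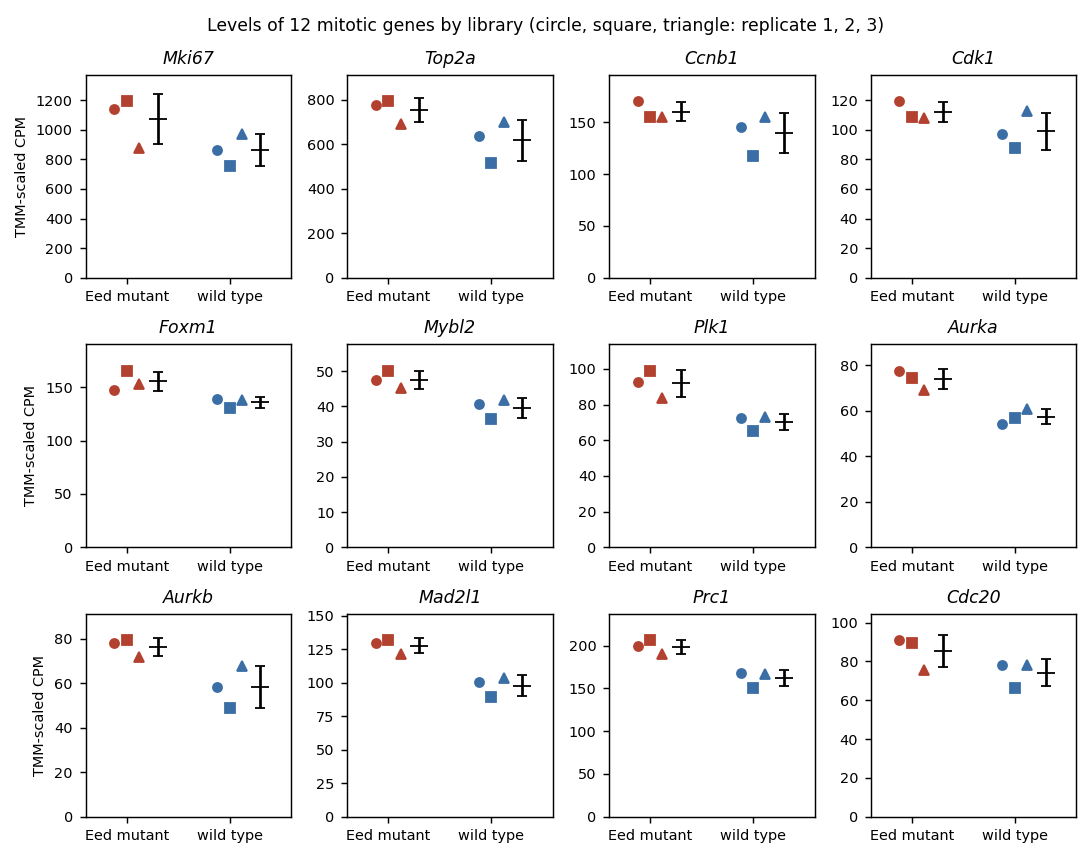
Levels of 12 mitotic genes in TMM-scaled CPM, with Eed mutant libraries at the left of each panel and wild-type libraries at the right; black bars are the mean ± SD of 3 libraries, and axes start at 0. Plk1, Aurka, Mad2l1 and Prc1 show separate groups, while Mki67, Top2a, Cdk1 and Cdc20 overlap, each with mutant replicate 3 below wild-type replicate 3.

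In the spindle checkpoint and its targets, Mad2l1 had the smallest p of all members. Mad2l1 encodes Mad2, which holds back the anaphase promoting complex until chromosomes are attached. It was at 130, 132 and 121 CPM in the mutants, against 101, 89.2 and 104 CPM in wild type (log2 fold change 0.38, SE 0.0749, edgeR adjusted p = 0.134, DESeq2 adjusted p = 0.00600). Bub1, a checkpoint kinase, was at 110.5, 111.7 and 101.2 CPM in the mutants, against 87.2, 69.5 and 94.4 CPM in wild type (log2 fold change 0.37, SE 0.115, edgeR adjusted p = 0.194). Its value was 0.25 without wild-type replicate 2. Ube2c, the ubiquitin-conjugating enzyme of the anaphase promoting complex, was at 101.9, 102.5 and 98.45 CPM in the mutants, against 87.4, 80.6 and 87.9 CPM in wild type, the smallest SE of the set (log2 fold change 0.24, SE 0.0597, edgeR adjusted p = 0.152). Cdc20, which activates that complex, overlapped: it was at 90.9, 89.4 and 75.8 CPM in the mutants, against 78.3, 66.3 and 77.9 CPM in wild type (log2 fold change 0.20, edgeR adjusted p = 0.327). Bub1b and Espl1, the protease separase that cuts cohesin, had log2 fold changes of 0.23 and 0.13. The subunits of the anaphase promoting complex are made throughout the cell cycle. A list of 16 genes held such subunits together with Fzr1 and Ube2s, which act with the complex but are not subunits. Of the 16 genes 0 were called, 2 were higher and 0 lower at an unadjusted edgeR p under 0.05, and the median was 0.03. Over all tested genes 9.29% were higher and 8.78% lower at that p, so the count of 2 is near the general share. Cdc27 had the largest difference, at 182, 172 and 158 CPM in the mutants and 145, 128 and 145 CPM in wild type.

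Of the 5 centromere and kinetochore genes, 1 had an unadjusted p under 0.05, against 9.29% of all tested genes higher at that p. Cenpa, the histone H3 variant that marks centromeres, was at 101, 98.2 and 91.1 CPM in the mutants, against 84.3, 72.0 and 95.8 CPM in wild type, with overlap (log2 fold change 0.20, SE 0.107, edgeR adjusted p = 0.359). Cenpe, a kinesin of the kinetochore, and Ndc80, which grips microtubules, had log2 fold changes of 0.28 with SE 0.151 and 0.148. Nuf2, the partner of Ndc80, had 0.26, and was the 1 kinetochore gene of 5 without overlap, against 13.1% of all tested genes higher without overlap. Cenpf had the smallest difference of all members: 230, 229 and 201 CPM in the mutants and 199, 192 and 237 CPM in wild type. Its log2 fold change was 0.07, and 0.18 on the log2(TPM + 1) scale. Of Cenpf TPM, 51.5%, 56.3% and 56.8% in the mutants and 52.6%, 54.5% and 41.8% in wild type came from Cenpf-202, a coding transcript of 358 bases beside a full-length one of 11130 bases, which makes the level of this gene per length uncertain.

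Motors and spindle proteins included 2 further genes that DESeq2 called. Prc1, which bundles the central spindle, was at 199, 206 and 190 CPM in the mutants, against 167, 151 and 167 CPM in wild type (log2 fold change 0.30, SE 0.0672, edgeR adjusted p = 0.149, DESeq2 adjusted p = 0.0255). Nusap1, a microtubule-binding protein of the spindle, was at 204, 192 and 180 CPM in the mutants, against 147, 127 and 165 CPM in wild type (log2 fold change 0.39, SE 0.103, edgeR adjusted p = 0.159, DESeq2 adjusted p = 0.0360). Among the kinesins, log2 fold changes were 0.32 for Kif4, 0.27 for Kif20a, 0.23 for Kif2c, 0.16 for Kif23 and 0.10 for Kif11, the motor that pushes spindle poles apart. Kif11 and Kif23 overlapped. Hmmr had 0.24 and overlapped narrowly, at 84.95 CPM in mutant replicate 3 and 84.98 CPM in wild-type replicate 3. The cytokinesis genes Anln, which organizes the contractile ring, and Ect2, which activates RhoA there, had 0.27 and 0.25, and Ect2 overlapped.

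The 10 members Ccna2, Cdc25b, Cdc25c, Cdca8, Cdc20, Ube2c, Kif20a, Kif4, Prc1 and Nusap1 overlap a protein-coding gene on the other strand in GENCODE M21. The labels do not say whether the libraries kept strand, so reads in such overlaps cannot be told apart. The muscle gene Tnnc2 overlaps Ube2c and was at 5.76, 3.04 and 14.0 CPM in the mutants, against 0.113, 0.757 and 1.26 CPM in wild type. Its means were 7.61 CPM in the mutants and 0.708 CPM in wild type, beside means of 100.9 and 85.3 CPM for Ube2c, and its part in the difference in Ube2c was not tested. Cdc23, on the other strand of Kif20a, averaged 119.6 CPM over the 6 libraries.

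At the level of transcripts, 29 members had some TPM from transcripts not annotated as coding (retained introns, processed transcripts or decay targets). Their share did not overlap between the groups for Cenpa and Anln, both lower in the mutants, and for 0 members was it higher, against 6.59% of 10243 genes lower and 4.49% higher. Cenpa and Anln are 6.9% of the 29, near the share of all genes, so this count does not set the members apart. For Cenpa the share was 66.2%, 63.6% and 64.8% in the mutants, against 73.2%, 69.9% and 69.7% in wild type. The share was between 69.1% and 72.6% for Kif23 in the 6 libraries, and Aurkb had 44.6% to 46.0% in the mutants and 41.8% to 49.6% in wild type. Kif20a is listed with a pair of coding transcripts of 3567 and 3565 bases. The first took 71.8%, 32.5% and 59.6% of its TPM in the mutants and 69.2%, 50.9% and 62.4% in wild type, a split with no order by group.

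The mitotic genes were set beside other cell cycle lists. Of 70 further mitotic genes outside the set, 0 were called in edgeR, 25 were higher and 1 lower at an unadjusted p under 0.05, and the median was 0.22. Over all tested genes the shares at that p were 9.29% higher and 8.78% lower. Tuba1c, Ccnf and Gtse1 had log2 fold changes of 0.40, 0.26 and 0.36. The gene lower was Hjurp, the chaperone that loads Cenpa at centromeres, at 570, 485 and 465 CPM in the mutants, against 855, 700 and 755 CPM in wild type (log2 fold change -0.60, SE 0.111, edgeR adjusted p = 0.130). DESeq2 called 1 of the 70 genes higher and 1 lower, against 2.96% and 2.26% of all genes it tested. Of 60 S phase and replication genes, 0 were called, 21 were higher and 0 lower at an unadjusted p under 0.05, and 59 had positive values with a median of 0.20. Usp1, a deubiquitinase of DNA repair, Ccne1, cyclin E1, and Asf1b, a histone chaperone, had 0.40, 0.50 and 0.45, and DESeq2 called all 3 higher. The summed mitotic members divided by the summed S phase list gave 1.163, 1.14 and 1.087 in mutant replicates 1 to 3 and 1.086, 1.088 and 1.093 in wild-type replicates 1 to 3.

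Condensin and cohesin genes, which shape and hold sister chromatids, had a median of 0.16, with 4 of 19 higher and 0 lower at an unadjusted p under 0.05 and 0 called. Over all tested genes 9.29% were higher and 8.78% lower at that p. In the list of cell cycle entry genes and their inhibitors edgeR called 0 of 19, 10 were higher and 1 lower at an unadjusted edgeR p under 0.05, and the median was 0.28. DESeq2 called 6 of these higher and 1, Gadd45a, lower, against 2.96% and 2.26% of all genes it tested. Genes that restrain division were among both: the Cdk inhibitor Cdkn1c had a log2 fold change of 1.99 and the antiproliferative gene Btg2 0.70, whereas the stress gene Gadd45a was at 11.3, 11.7 and 12.7 CPM in the mutants, against 19.1, 18.1 and 17.5 CPM in wild type (-0.61, edgeR adjusted p = 0.116). Without wild-type replicate 2 the medians were 0.13 for the further mitotic genes, 0.12 for S phase, 0.09 for condensin and cohesin and 0.04 for the MuvB and E2F list, each smaller by over 1.5 times. The last was 0.11 without mutant replicate 1 and 0.12 without wild-type replicate 3.

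**Figure D5:**
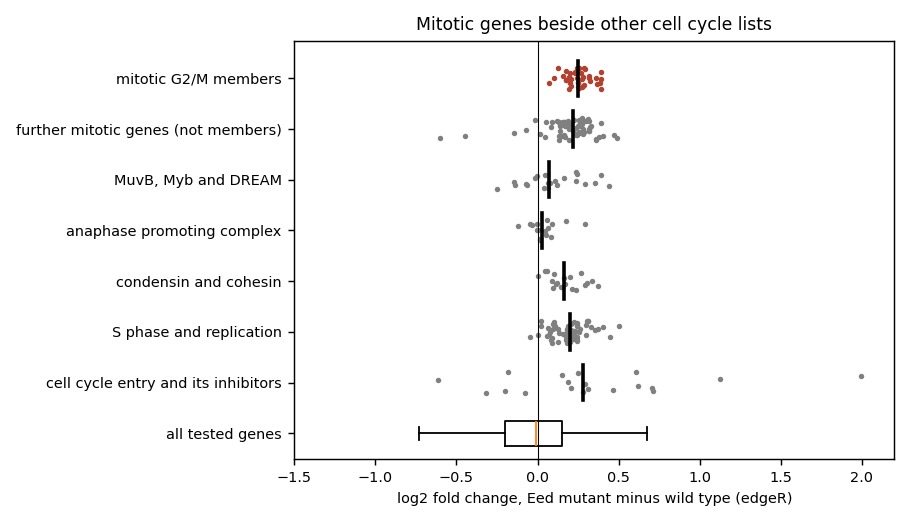
Log2 fold changes, Eed mutant minus wild type (edgeR), of the 40 mitotic genes and of 6 other cell cycle lists, 1 point per gene with the median as a black bar, and a box plot (median, quartiles, whiskers to 1.5 times the interquartile range) of all 19145 tested genes. The mitotic members lie between 0.07 and 0.39, the S phase list has a median of 0.20, and the anaphase promoting complex list has a median of 0.03.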

How the data were processed

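Total RNA was sequenced from 3 Eed mutant and 3 wild-type medulloblastomas. The authors quantified transcripts with kallisto 0.43.1 against GRCm38 (mm10), per the submitters' processing notes, and deposited estimated counts and TPM for 131100 transcripts. The labels do not state strand, read length or annotation release. The deposited estimated counts were summed per gene and rounded, and the deposited TPM were summed per gene. Genes were filtered with filterByExpr and tested with edgeR 4.0.16 (R 4.3.3): TMM scaling, quasi-likelihood F test, two-sided, Benjamini-Hochberg adjustment over 19145 genes at 0.05. Alternatives used DESeq2 1.42.0, limma 3.58.1 (voom, and trend on log2(TPM + 1)), other scalings, filters, a length offset, the replicate block, the file code and leaving out each library. The edgeR, DESeq2 and limma-voom fits were run on simulated counts with fold changes larger than that of any member. Recovery of differences as small as those seen here was not tested.

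Full values are given for 12 fixed members, the 6 members with the smallest edgeR p and the 6 with the largest fold change, and for up to 4 genes of each other list by p. The MuvB subunits, E2f1, Cdc23, Tnnc2 and Opalin were named after their values were seen. Members and lists were chosen with earlier results of these data known. Of 320 list genes, 315 matched.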

Additional observations from a re-analysis of the deposited data

How the results depend on the processing

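Over 17 refits, 680 values of single members were recomputed and 0 changed direction. All-gene calls were 0 higher and 0 lower in edgeR, against 524 and 399 in DESeq2 (5 members), 1 higher in limma-voom, 3 higher with no filter on low counts and 4 higher at an adjusted p of 0.1. With the replicate block in edgeR the calls were 189 higher and 84 lower, with 0 members, but the replicate numbers pair nothing in the labels. After each group's mean was subtracted per gene, the deviations of same-numbered libraries correlated at 0.227, 0.0624 and -0.135. Those of mutant replicates 1 and 2 correlated best with their same-numbered wild-type library, and those of mutant replicate 3 with wild-type replicate 2 (0.193). Deviations within a group sum to 0, so these values are tied to each other. When file codes were added to the model, 14 members had an unadjusted p under 0.05. Leaving out each library in turn gave 0 to 6 genes higher, 0 to 3 lower, 14 to 32 members at an unadjusted p under 0.05, 24 to 37 members without overlap and a members' median of 0.165 to 0.317. Members without overlap numbered 19 in TPM. The share of all genes is not given beside these counts of members, and smaller groups separate more easily. Every member had at least 509 estimated counts in every library.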
